A study of Mesocricetus auratus with 10 samples.

Results

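The 10 genes described here carry fatty acids into triglyceride and package it for export from the liver: GPAM, AGPAT2, AGPAT3, LPIN1, LPIN2, LPIN3, DGAT1, DGAT2, MTTP and TM6SF2. All probes whose gene name on the array is one of these symbols were taken, which gave 85 probes of 116452 on the array, and all 10 genes had at least 3 probes. Livers came from 10 male hamsters of the species Mesocricetus auratus, the golden hamster, on a high fat diet (HFD). The RNA of each was set against 1 pool made from the livers of 10 hamsters on a standard diet (STD). The sources used here give no strain, age, diet composition or length of feeding. Each HFD liver was measured against the pool on 2 custom 2-colour Agilent arrays of 60-base probes, 1 in each dye orientation, and the 20 arrays thus stand for 10 animals. The STD animals were measured only as the pool, which leaves their own spread unknown, and anything peculiar to that pool enters all 10 ratios.

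Triglyceride is built on glycerol 3-phosphate. Glycerol-3-phosphate acyltransferases such as GPAM add the first fatty acid, the AGPAT enzymes add the next and make phosphatidate, and the lipins remove its phosphate to give diacylglycerol. DGAT1 and DGAT2 then add the last fatty acid. In hepatocytes, the microsomal triglyceride transfer protein MTTP loads lipid onto apolipoprotein B to start a very low density lipoprotein (VLDL), and TM6SF2 is needed in mouse and human liver for particles to be filled with lipid. Lipins also enter the nucleus and act with transcriptional regulators, and in mouse liver LPIN1 is known to respond to fasting.

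Values are log2 ratios with HFD liver over the pool, the mean of an animal's 2 arrays, so that -1 stands for a level 2 times lower in HFD liver. A gene is given by its brightest probe, and ± is the SD between the 10 animals. The test was limma's moderated test of the mean against 0, two-sided, with Benjamini-Hochberg adjustment over 13875 named genes and a threshold of 0.05 on the adjusted p. Per array, the share of probes well above background was 77.5% to 97.8% in HFD RNA, against 77% to 96.7% in the pool, and no spot was saturated. The 6 arrays of animals 5 to 10 that carry HFD in Cy3 had been found to stand apart in earlier work on these data, and on them the share was 77.5% to 88.8% in HFD RNA, against 87% to 97.8% on the other 14. Levels are from whole liver, in which fewer cells of a type and less RNA per cell cannot be told apart.

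By the probes named for them, 7 of the 10 genes were lower in HFD liver (LPIN1, TM6SF2, GPAM, AGPAT3, LPIN2, MTTP and LPIN3). DGAT2 was higher, and AGPAT2 and DGAT1 did not pass the test. Over all genes tested, 28.8% were lower and 31.3% higher, the median of the mean ratios was 0.00822, and their median size was 0.111. By probe, 62 of the 85 member probes were lower and 10 higher, against 28.3% lower and 26.7% higher among all 104156 probes tested. All 85 probes passed the filter on dim signals, LPIN1 probe 31152 through the pool alone. No gene had probes called in both directions. Which strand the GPAM and LPIN1 probes report was not tested, so their calls hold for the probes named for them. Unnamed probes on the strand opposite to GPAM did not pass the test.

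**Figure D1:**
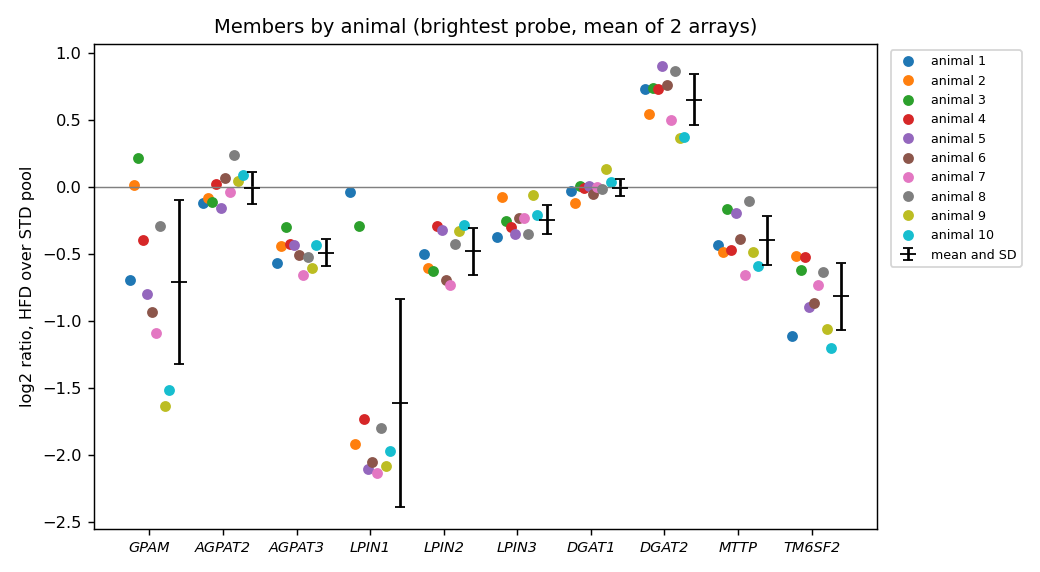
Log2 ratio of HFD liver over the STD pool (vertical axis) for the 10 genes in the order of the pathway, with 1 point per HFD animal and the mean and SD at the right of each gene. LPIN1 is near 0 in animals 1 and 3 and at -1.73 or lower in the other 8, GPAM runs from -1.64 to 0.22, and DGAT2 lies above 0 in all 10.

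By the probes named for it, GPAM, the mitochondrial enzyme of the entry step, was lower in HFD liver on average and differed widely between animals. Its ratios in animals 1 to 10 were -0.69, 0.01, 0.22, -0.40, -0.80, -0.93, -1.09, -0.29, -1.64 and -1.51. Animals 9 and 10 were the lowest, and animals 2 and 3 lay at or above the pool. The mean was -0.71 ± 0.61, 1.64-fold lower, with an adjusted p of 0.00196 in limma. This SD, that of the brightest probe, was the 29th largest of the 13875 genes, whose median SD was 0.108. The other GPAM probes had SDs between 0.27 and 0.41. All 8 GPAM probes were lower, with means between -0.71 and -0.39, and they ordered the animals alike, with pairwise correlations between 0.918 and 0.997. These probes share their arrays, so that their agreement does not stand for independent measurements of an animal.

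The size of the GPAM difference depended on the arrays used. On the 6 arrays with HFD in Cy3 of animals 5 to 10 the ratios lay between -2.27 and -0.88, and the processed signal in HFD RNA was 65 to 423 units, against 607 to 823 in the pool. On the other 14 arrays the ratios lay between -1.01 and 0.45, with 332 to 858 units in HFD RNA and 524 to 876 in the pool. The 2 sets of arrays overlap in ratio between -1.01 and -0.88. A fit on those 14 arrays, in which the dye was a term and animals a random block, gave a mean of -0.29 (limma adjusted p = 0.0511), so that the call of the brightest probe was lost. In the same fit 7 of the 8 GPAM probes were still called lower, at means between -0.33 and -0.20 over the 8. The share of all probes called in that fit was not counted. Within scan session 3 alone the mean was -0.54 (limma adjusted p = 0.0809), and within scan session 1 alone it was -0.81 (limma adjusted p = 0.00232).

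Other measures of the arrays and the tissue moved with GPAM between animals. The share of probes well above background in HFD RNA on the animal's array with HFD in Cy3 ran from 77.5% in animal 9 and 81.2% in animal 10 to 88.8% in animal 8. Over the 10 animals it correlated with the GPAM ratio at Pearson r = 0.86 (permutation p = 0.00118, adjusted p = 0.00992 over 16 relations computed) and Spearman rho = 0.84 (permutation p = 0.00372, adjusted p = 0.0298). Without the 2 animals farthest from the median of that share, r was 0.71. For the share on the array with HFD in Cy5, r was 0.22 (permutation p = 0.529, adjusted p = 0.651) and rho was 0.13 (permutation p = 0.709, adjusted p = 0.873). The GPAM ratio on the Cy5 arrays alone correlated with the share on the Cy3 arrays at r = 0.65 (permutation p = 0.0402, adjusted p = 0.161) and rho = 0.61 (permutation p = 0.0653, adjusted p = 0.213). The median ratio of 14 hepatocyte markers, between -0.43 and -0.05 per animal, correlated with the GPAM ratio at r = 0.86 (permutation p = 0.00186, adjusted p = 0.00992) and rho = 0.85 (permutation p = 0.00306, adjusted p = 0.0298), and r was 0.72 without the 2 animals farthest from its median. The part of array quality or of hepatocyte RNA in the GPAM result was not tested.

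**Figure D2:**
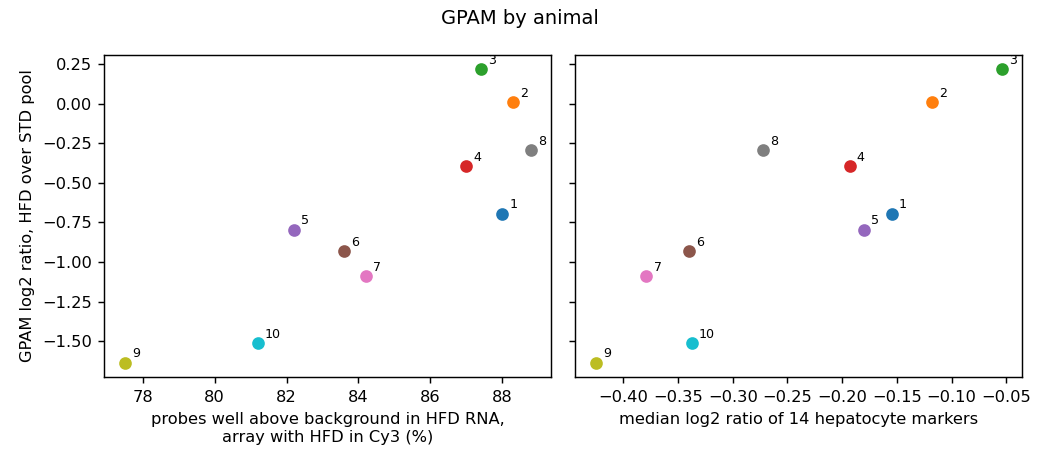
GPAM log2 ratio (vertical axes) against the percentage of probes well above background in HFD RNA on the animal's array with HFD in Cy3 (left) and against the median log2 ratio of 14 hepatocyte markers (right), 1 numbered point per HFD animal. Animals 9 and 10, the lowest in GPAM, have the lowest percentages, 77.5% and 81.2%, and animals 2 and 3 lie at the upper right of both plots.

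The sequences of the GPAM probes were set against the rest of the array to see what they report. All 8 come from 1 assembled transcript, and 2 of them overlap, on the opposite strand, probes of transcripts that the array's design left unnamed. The pairs are shown because the 2 strands gave different ratios, with the shared bases in capitals, which read as reverse complements of each other.
GPAM probe 103818: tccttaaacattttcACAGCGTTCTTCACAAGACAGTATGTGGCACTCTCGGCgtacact
Unnamed probe 100078: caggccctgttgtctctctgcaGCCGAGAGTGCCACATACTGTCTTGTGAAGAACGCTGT
GPAM probe 103826: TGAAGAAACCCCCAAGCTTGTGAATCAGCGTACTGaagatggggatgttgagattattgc
Unnamed probe 45501: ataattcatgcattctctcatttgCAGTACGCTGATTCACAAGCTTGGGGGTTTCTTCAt
The brightest GPAM probe, 103823, has no reading frame free of stop codons as printed here and 2 on its reverse complement, while the other 7 have at least 1 as printed and at least 1 on the reverse complement.
GPAM probe 103823: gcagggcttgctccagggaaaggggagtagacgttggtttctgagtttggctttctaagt

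The shared stretches were 38 and 35 bases long, and a further unnamed probe, 44642, shares 28 bases with the opposite strand of 103826. GPAM probe 103818 averaged -0.55 ± 0.38, against -0.04 ± 0.24 for its unnamed partner, and was lower than it in 10 of 10 animals (difference -0.51, exact sign-flip permutation p = 0.00195, adjusted p = 0.00651 over 5 opposite-strand pairs). GPAM probe 103826 averaged -0.39 ± 0.27, against 0.02 ± 0.35 for probe 45501 and 0.09 ± 0.31 for probe 44642. It was lower than each in 9 of 10 animals (exact permutation, adjusted p = 0.00977 and 0.00651). The 3 unnamed probes did not pass the test against the pool (limma adjusted p = 0.592, 0.858 and 0.385). In animal 8 probes 45501 and 44642 stood at 0.81 and 0.82, where the 8 GPAM probes lay below 0. The differences were larger with the scanner software's processed signals, at -0.76, -0.76 and -0.90 in the order of these pairs. Which of the 2 strands carries the GPAM messenger was not tested, so the ratios named GPAM are those of the strand its probes report. They are not read as a change of the messenger itself.

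**Figure D3:**
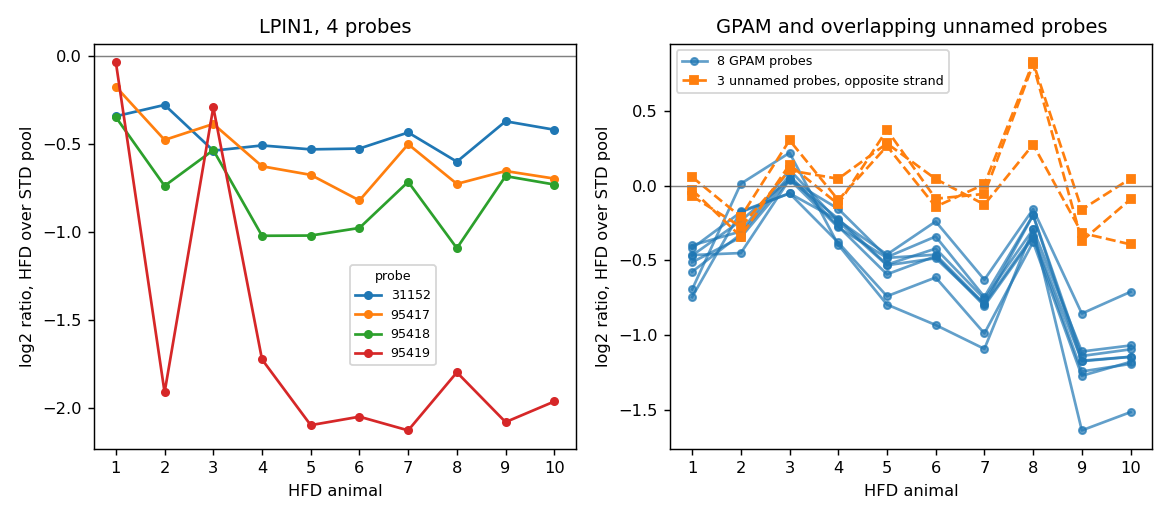
Log2 ratio of HFD liver over the STD pool by HFD animal (lines only join the values of a probe) for the 4 LPIN1 probes (left) and for the 8 GPAM probes with the 3 unnamed probes of the opposite strand (right). LPIN1 probe 95419 separates animals 1 and 3 from the rest, and in animal 8 unnamed probes reach 0.82 while GPAM probes stay below 0.

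The acyltransferases of the next step did not move together. AGPAT3, an acylglycerophosphate acyltransferase, had ratios between -0.65 and -0.30 with a median of -0.47. It was below 0 in all 10 animals, with a mean of -0.49 ± 0.10, 1.4-fold lower in HFD liver (limma adjusted p = 8.38e-08). Its 14 probes, from 4 assembled transcripts, were all lower, with means between -0.56 and -0.30. AGPAT2, the family member whose loss causes a congenital lipodystrophy in humans, had ratios between -0.16 and 0.23 with a median of -0.01 and a mean of -0.01 ± 0.12 (limma adjusted p = 0.897), and its animals fell on both sides of the pool. Its brightest probe averaged -0.10 with HFD in Cy5 and 0.08 with HFD in Cy3, neither of them called (limma adjusted p = 0.052 and 0.146). Of the 5 AGPAT2 probes, 2 were lower, the lowest at -0.25 ± 0.20. The mean over its 5 probes was -0.12, which passed the test (limma adjusted p = 0.035). Within animals AGPAT2 stood 0.48 ± 0.18 above AGPAT3, in 10 of 10 (exact sign-flip permutation p = 0.00195, adjusted p = 0.00488 over 5 pairs of members).

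Among the lipins, LPIN1 had the lowest ratio by the probes named for it, and separated the animals into 2 sets. Its ratios in animals 1 to 10 were -0.04, -1.91, -0.29, -1.73, -2.10, -2.05, -2.13, -1.80, -2.08 and -1.96. Animals 1 and 3 were close to the pool, and the other 8 lay between -2.13 and -1.73, with the gap between the sets taking 68.5% of the whole range. The mean was -1.61 ± 0.77, 3.05-fold lower, with an adjusted p of 2.1e-05 in limma. The SD, that of the brightest probe, was the 9th largest of all genes tested. In animals 1 and 3 the processed signal in HFD RNA was 281 to 357 units, against 282 to 444 units for the pool on the same 4 arrays. In the other 8 animals it was 7.35 to 73.9 units, against 253 to 489 for the pool on the same 16 arrays. The probe was well above background in HFD RNA on 15 of the 20 arrays, all 4 of animals 1 and 3 among them, and in the pool on all 20. From the processed signals the mean was larger in size, at -2.77, and in the authors' deposited table it was -2.46. In both, animals 1 and 3 were again the highest, at -0.04 and -0.35 from the processed signals and at -0.05 and -0.37 in the authors' deposited table.

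Of the other 3 LPIN1 probes, 95417 and 95418 were lower in 10 of 10 animals, with means of -0.58 ± 0.19 and -0.79 ± 0.24. From the processed signals their means were -1.46 and -2.12, and in the authors' deposited table -1.28 and -1.76, nearer to those of the brightest probe. They were well above background in HFD RNA on 14 and 10 of 20 arrays. Animals 1 and 3 were also the highest in probe 95417, at -0.18 and -0.39, and in probe 95418, at -0.35 and -0.54. Probe 31152 was well above background in HFD RNA on 3 of 20 arrays, against 19 in the pool, so that it passed the filter only through the pool, and its ratio is not taken as a measure of LPIN1. The mean over all 4 probes, this one included, was -0.86. On the array with HFD in Cy5 animals 1 and 3 had LPIN1 ratios of -0.36 and -0.24, against -2.02 to -1.40 in the other 8, and on the array with HFD in Cy3 they had 0.29 and -0.35, against -2.47 to -1.81. The 2 animals thus stood apart in both dye orientations. Within the 8 other animals the 2 arrays did not order the animals alike (r = -0.09, exact permutation p = 0.844, and rho = -0.10, exact permutation p = 0.84).

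The sequence of LPIN1 probe 95417 was set against the other lipin probes. It has no stop-free reading frame as it stands on the array and 2 on its reverse complement. The reverse complement matches an LPIN2 probe at 33 of 38 aligned bases (86.8%), against 39.7% at the best position of the same 2 probes as printed on the array. The pair is shown to make this visible, with identical bases of the alignment in capitals.
LPIN1 probe 95417, reverse complement: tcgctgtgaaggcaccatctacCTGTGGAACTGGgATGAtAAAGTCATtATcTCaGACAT
LPIN2 probe 85050: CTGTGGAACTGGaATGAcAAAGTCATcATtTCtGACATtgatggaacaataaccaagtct
The brightest LPIN1 probe comes from the same assembled transcript.
LPIN1 probe 95419: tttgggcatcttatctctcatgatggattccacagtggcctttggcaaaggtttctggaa
Of 3282 named transcripts with at least 5 probes on the array, 1227 had a stop-free frame in every probe only as printed, 411 only on the reverse complement, 1435 in both directions and 209 in neither. The LPIN1 transcript has 3 probes and is not among them. All 3 have a stop-free frame on the reverse complement and 2 as printed. By the alignment, probe 95417 stands on the array in the opposite orientation to LPIN2 probe 85050. Which of the 2 orientations matches the messenger was not tested, so the ratios named LPIN1 are those of the strand its probes report.

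LPIN2 was lower by its brightest probe, with ratios between -0.73 and -0.29, a median of -0.46 and a mean of -0.48 ± 0.17, below 0 in 10 of 10 animals (limma adjusted p = 3.57e-06). That probe was lower than most others of the gene. Of 15 LPIN2 probes 13 were lower, with a median over the probes of -0.13, and the mean of all probes was -0.23. On arrays with HFD in Cy5 all 15 were called lower, and on arrays with HFD in Cy3 5 of 15 were. The share of all probes called was not counted for these 1-dye fits, so the counts are not read as particular to LPIN2. The lowest LPIN2 probe, 100424 at -0.75 ± 0.34, overlaps another LPIN2 probe by 23 bases on the opposite strand, in capitals.
LPIN2 probe 100424: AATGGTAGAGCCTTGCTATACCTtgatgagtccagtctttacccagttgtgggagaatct
LPIN2 probe 91399: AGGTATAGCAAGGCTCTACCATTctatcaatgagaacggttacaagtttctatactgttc
Probe 100424 was lower than its partner, which averaged -0.12 ± 0.16, in 9 of 10 animals (difference -0.63, exact permutation, adjusted p = 0.00651). The 2 probes of this LPIN2 transcript followed the GPAM ratios over the 10 animals at r = 0.85 and 0.90. The 10 probes of the LPIN2 transcript with the most probes had r between -0.44 and 0.52 with GPAM, on the same arrays. These correlations are descriptions of 10 animals.

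LPIN3 was lower in HFD liver by a small amount. Its ratios lay between -0.38 and -0.06 with a median of -0.24 and a mean of -0.24 ± 0.11, below 0 in 10 of 10 animals, 1.18-fold lower (limma adjusted p = 4.71e-05). All 3 of its probes were lower, with means between -0.43 and -0.21. Within animals, LPIN1 stood 1.13 ± 0.82 below LPIN2 in 8 of 10 and 1.37 ± 0.82 below LPIN3 in 9 of 10 (exact sign-flip permutation, adjusted p = 0.00781 for each). In animal 1 LPIN1 stood above both, and in animal 3 above LPIN2. These differences are between probes named for the genes. By the alignment above, LPIN1 probe 95417 stands in the opposite orientation to LPIN2 probe 85050. Another probe of that LPIN2 transcript shares 37 bases, on the same strand, with the transcript of the brightest LPIN2 probe. LPIN1 minus LPIN2 is thus not read as a difference between the 2 messengers. Whether the LPIN1 and LPIN3 probes report the same strand was not tested. The sizes of the differences varied with the scaling. From the processed signals the means were -2.26 for LPIN1 minus LPIN2 and -2.46 for LPIN1 minus LPIN3, in the authors' deposited table they were -1.96 and -2.15, and with the mean of all probes -0.63 and -0.56. LPIN2 stood 0.24 ± 0.22 below LPIN3 in 8 of 10 (exact sign-flip permutation, adjusted p = 0.00781), but with the mean of all probes the difference was 0.06, with the opposite sign and an adjusted p of 0.346 (exact permutation).

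The 2 enzymes of the last step differed. DGAT2, which works largely on newly made fatty acids, had ratios between 0.36 and 0.90 with a median of 0.73. It was above 0 in 10 of 10 animals, with a mean of 0.65 ± 0.19, 1.57-fold higher in HFD liver (limma adjusted p = 5.36e-07). Animals 9 and 10, the lowest in GPAM, were also the lowest in DGAT2, at 0.36 and 0.37. All 9 DGAT2 probes were higher, with means between 0.43 and 0.65. DGAT1, the other enzyme, had ratios between -0.12 and 0.13 with a median of -0.01 and a mean of -0.0048 ± 0.0639 (limma adjusted p = 0.881). Its mean was -0.09 on arrays with HFD in Cy5 and 0.08 on arrays with HFD in Cy3, each called in its own direction (limma adjusted p = 0.0404 and 0.0434), so that the sign differed with the dye. Of 7 DGAT1 probes, 1 was higher, at 0.19 ± 0.11. The mean of that probe was -0.03 with HFD in Cy5 and 0.42 with HFD in Cy3, so its rise appeared in 1 dye orientation only. On Cy5 arrays 2 of the 7 were called lower, and on Cy3 arrays 5 were called higher. The share of all probes called was not counted for either dye. Within animals DGAT1 stood 0.66 ± 0.23 below DGAT2 in 10 of 10 (exact sign-flip permutation p = 0.00195, adjusted p = 0.00488).

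DGAT1 also had probes on both strands. The pair is shown because it shares nearly all its bases, in capitals, and its difference did not pass the test that the GPAM and LPIN2 pairs passed.
DGAT1 probe 43684: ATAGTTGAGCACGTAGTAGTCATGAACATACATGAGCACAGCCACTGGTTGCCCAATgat
DGAT1 probe 76402: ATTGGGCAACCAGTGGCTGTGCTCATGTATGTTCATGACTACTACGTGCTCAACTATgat
With 57 shared bases these probes averaged -0.02 ± 0.09 and -0.0048 ± 0.0639, and their difference was -0.02 ± 0.06 (exact sign-flip permutation p = 0.365).

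**Figure D4:**
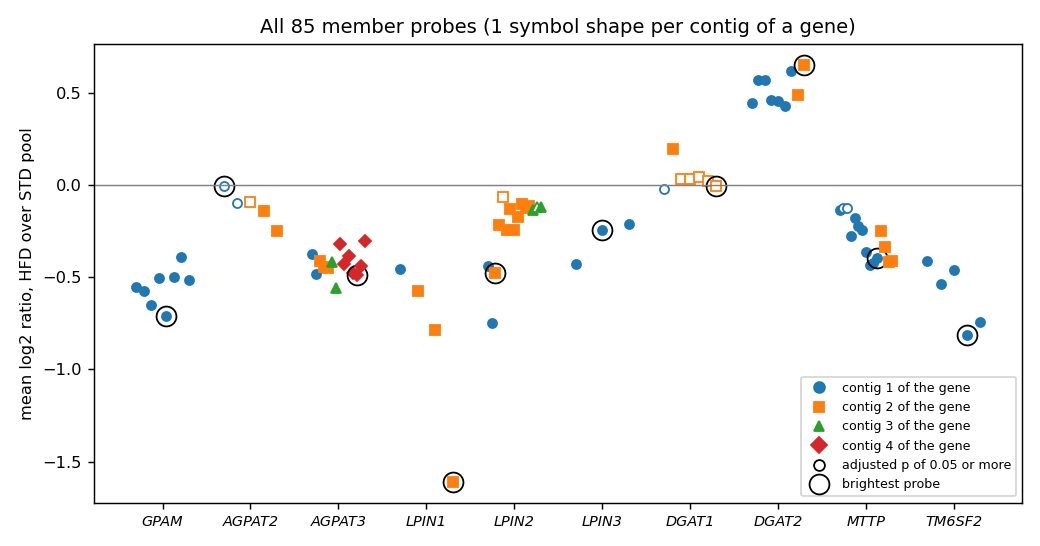
Mean log2 ratio of HFD liver over the STD pool for each of the 85 probes, grouped by gene, with symbol shape and colour for the assembled transcript (contig), open symbols for an adjusted p of 0.05 or more and a ring around the brightest probe. All 9 DGAT2 probes lie above 0, all 14 AGPAT3 probes lie between -0.56 and -0.30, and the brightest LPIN1 and LPIN2 probes lie below most others of their gene.

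Both members that act in VLDL assembly were lower. TM6SF2, a membrane protein of the endoplasmic reticulum, had ratios between -1.20 and -0.52 with a median of -0.80. It was below 0 in 10 of 10 animals, with a mean of -0.82 ± 0.25, 1.76-fold lower in HFD liver (limma adjusted p = 5.66e-07). Its processed signal was 449 to 1280 units in HFD RNA, against 1050 to 1860 in the pool. All 5 TM6SF2 probes were lower, with means between -0.82 and -0.41. Without the 6 arrays of animals 5 to 10 with HFD in Cy3, the fit on the other 14 gave a smaller mean of -0.61 (limma adjusted p = 4.79e-06). In that fit the 5 probes were all still called lower, and the share of all probes called was not counted.

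MTTP had ratios between -0.66 and -0.11 with a median of -0.45 and a mean of -0.40 ± 0.18, below 0 in 10 of 10 animals and 1.32-fold lower (limma adjusted p = 2.56e-05). Animals 8 and 3 were nearest to the pool, at -0.11 and -0.16, and animal 7 was farthest. Of 15 MTTP probes 13 were lower, and the means over the 15 lay between -0.43 and -0.13. All 15 were called lower on arrays with HFD in Cy5, where their means lay between -0.54 and -0.23. On arrays with HFD in Cy3, 8 of the 15 were called lower, and their means ran from -0.44 to 0.10. The share of all probes called was not counted for either dye. The brightest probe had nearly the same mean in both, at -0.41 with HFD in Cy5 and -0.38 with HFD in Cy3. Probes of identical sequence show how far a value repeats within an array: 2 MTTP pairs and 1 AGPAT2 pair differed by at most 0.08 in any animal.

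Whether an animal's position recurred on its 2 arrays was tested for each gene. DGAT2 was the one gene of the 10 that passed, with Pearson r = 0.86 between the array with HFD in Cy5 and that with HFD in Cy3 (permutation p = 0.00164, adjusted p = 0.0164 over 10 genes) and rho = 0.87 (permutation p = 0.0026, adjusted p = 0.026). Without the 2 animals farthest from the median, r was 0.75, and within animals 5 to 10 it was 0.89. Over all genes tested the median r was 0.19, and 24.7% of genes had r above 0.5. LPIN2 and MTTP each had r = 0.75 (permutation p = 0.0153 and 0.0228, adjusted p = 0.076 for each). Their rho was 0.68 and 0.66 (permutation, adjusted p = 0.145 for each). GPAM had r = 0.585 (permutation p = 0.0771, adjusted p = 0.154) and rho = 0.55 (permutation p = 0.104, adjusted p = 0.26), with r = 0.94 within animals 5 to 10 and 0.55 within animals 1 to 4, and 0.92 without the 2 animals farthest from the median. TM6SF2, lower on all 20 arrays, had r = -0.12 (permutation p = 0.849, adjusted p = 0.852) and rho = 0.18 (permutation p = 0.63, adjusted p = 0.788), so that no recurring order of its animals was detected. Without the 2 animals farthest from the median of its Cy5 ratios, animal 1 among them at -1.54 on Cy5 and -0.69 on Cy3, r was 0.49. LPIN1 gets no r over all 10, since its animals form 2 sets.

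**Figure D5:**
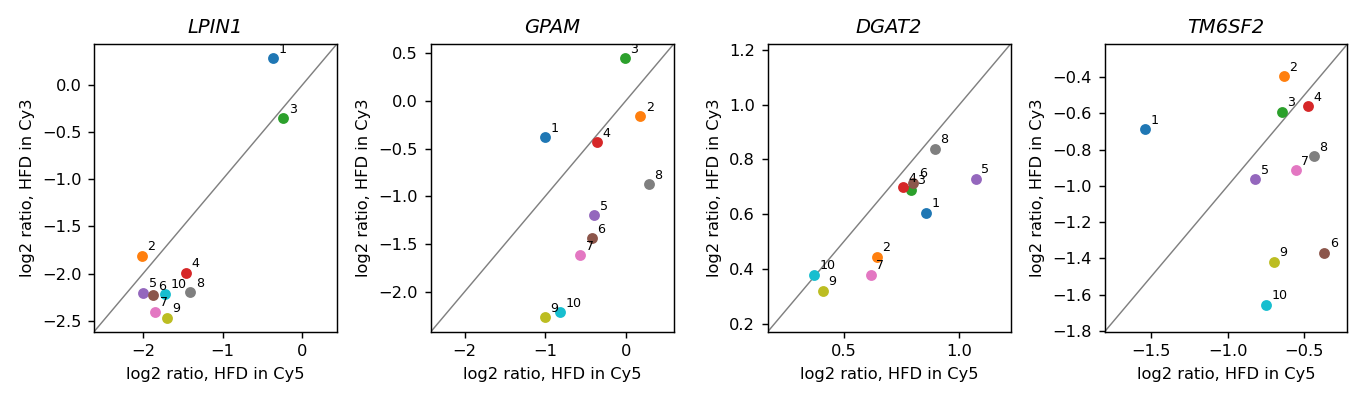
Log2 ratio on the array with HFD in Cy3 (vertical axis) against that on the array with HFD in Cy5 (horizontal axis) for LPIN1, GPAM, DGAT2 and TM6SF2, with 1 numbered point per HFD animal and the line of equality. Animals 1 and 3 stand apart in LPIN1 on both arrays, DGAT2 keeps the order of its animals (r = 0.86), and TM6SF2 has r = -0.12.

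The spread of GPAM and LPIN1 was set against that of the other members, over 10 animals for GPAM and within the 8 animals of the larger set for LPIN1. Of 17 pairs, 0 passed after adjustment, and 2 had an unadjusted permutation p under 0.05. The strongest was GPAM with TM6SF2, at r = 0.79 (permutation p = 0.0083, adjusted p = 0.141) and rho = 0.75 (permutation p = 0.0175, adjusted p = 0.297). Without the 2 animals farthest from the median of GPAM r was 0.78. Over single arrays centred by dye it was 0.85 within scan session 1 and 0.86 within scan session 3. In both sessions Cy3 arrays from the set of animals 5 to 10 were centred together with Cy3 arrays of other animals. Centring thus leaves the difference between those arrays in. With HFD in Cy5 only r was 0.55 (permutation, adjusted p = 0.575), and with HFD in Cy3 only it was 0.89 (permutation, adjusted p = 0.011). The other was GPAM with DGAT1, at r = -0.65 (permutation p = 0.0395, adjusted p = 0.282) and rho = -0.48 (permutation p = 0.166, adjusted p = 0.471), with r = -0.09 and -0.81 within the 2 sessions. LPIN1 with GPAM gave r = 0.63 over the 8 animals (exact permutation p = 0.0996, adjusted p = 0.282) and rho = 0.60 (exact permutation p = 0.132, adjusted p = 0.458). With HFD in Cy5 only r was 0.10 and with HFD in Cy3 only 0.85 (exact permutation, adjusted p = 0.926 and 0.0287). From the processed signals it was 0.86 (exact permutation, adjusted p = 0.0511). On the Cy3 arrays of animals 5, 6, 7, 9 and 10 LPIN1 was not well above background in HFD RNA.

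The genes whose ratios followed the 2 spread-out members most closely over the 10 animals were found among 7663 called genes detected in both RNAs. For GPAM they were CAT (r = 0.97), which encodes catalase, CYB5 (0.96), which encodes cytochrome b5, AKR1C21 (0.96), DERA (0.96) and SAR1B (0.96). Their mean ratios were -0.53 ± 0.42, -0.56 ± 0.30, -0.37 ± 0.30, -0.33 ± 0.13 and -0.59 ± 0.43 in that order, and animal 9 was the lowest in each. On arrays with HFD in Cy3 alone their r with GPAM lay between 0.95 and 0.97, and with HFD in Cy5 alone between 0.15 and 0.77. SAR1B encodes the small GTPase of the vesicles that carry lipoproteins out of the endoplasmic reticulum. For LPIN1 they were FKBP1B (r = 0.96), TK1 (0.92), RASGEF1B (0.90), DNAJC25 (0.90) and REST (0.89). These r over 10 animals rest on animals 1 and 3, the 2 highest in each of these 5, and their SD was 0.10 to 0.21, against 0.77 for LPIN1. On the arrays with HFD in Cy5 alone the r with LPIN1 lay between 0.26 and 0.81, and on those with HFD in Cy3 alone between 0.78 and 0.90. As these genes were picked for their likeness, the values are a description, and no p is given.

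Other genes of the pathway were taken from lists and counted by limma in the same fit. Over all genes tested in it, 28.8% were lower and 31.3% higher, and the lists were not tested against these shares. Of 14 further acyltransferases and phosphatases of glycerolipids 11 were measured, 4 higher and 5 lower, with a median mean ratio of 0.01. AGPAT5 rose by 0.42 ± 0.12 and AGPAT6, the older symbol of the microsomal enzyme GPAT4, by 0.15 ± 0.11. PPAPDC1B (-0.58 ± 0.16) and PPAP2A (-0.45 ± 0.17), which encode phosphatases of lipid phosphates other than the lipins, fell. Of 7 genes listed for glycerol 3-phosphate supply, all measured, 4 were lower, with a median of -0.24. The lowest, SLC37A4 (-0.52 ± 0.30), carries glucose 6-phosphate into the endoplasmic reticulum for glucose release and does not itself make or carry glycerol 3-phosphate. The others were GK (-0.42 ± 0.11), glycerol kinase, GPD1L (-0.24 ± 0.16) and AQP9 (-0.24 ± 0.10), the glycerol channel of hepatocytes.

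Of 20 further genes of VLDL assembly and secretion 17 were measured, 2 higher and 7 lower, with a median of -0.03. Beside these counts and those that follow stand the same shares over all genes, 28.8% lower and 31.3% higher. APOB (0.27 ± 0.15), the structural protein of VLDL, and APOBEC1 (0.16 ± 0.17), which edits its messenger, rose, in 10 and 9 of 10 animals. SAR1B and CIDEB (-0.55 ± 0.39), a droplet protein involved in VLDL lipidation, fell. Like GPAM, both were lowest in animals 9 and 10 and highest in animals 2 and 3. CIDEB stood at -1.18 and -1.11 in animals 9 and 10, and at -0.19 and -0.0013 in animals 2 and 3. No value without the Cy3 arrays of animals 5 to 10 is given for either gene. Of 16 regulators of lipins and lipogenic acyltransferases 6 were higher and 7 lower, with a median of -0.00. SREBF1 (1.27 ± 0.28) and MLXIPL (0.59 ± 0.16), the lipogenic transcription factors SREBP1 and ChREBP, rose, while INSIG1 (-1.27 ± 0.22), which holds SREBP in the endoplasmic reticulum, and HNF4A (-0.39 ± 0.19), a regulator of hepatocyte genes that is also on the hepatocyte list, fell. In the branch from phosphatidate and diacylglycerol to phospholipid, 13 of 15 genes were measured, 6 higher and 6 lower, with a median of 0.07. ETNK1 (0.56 ± 0.21) and CEPT1 (0.49 ± 0.15) rose, and PEMT (-0.36 ± 0.12), which methylates phosphatidylethanolamine, and PCYT2 (-0.25 ± 0.12) fell.

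Markers of cell types moved as well, in a fit that called 28.8% of all genes lower and 31.3% higher. Of 15 hepatocyte markers 14 were measured, all well above background in both RNAs on 20 of 20 arrays, 2 higher and 9 lower by limma, with a median of -0.31. ALB (albumin) was at -0.23 ± 0.12 and AMBP at -0.79 ± 0.21. The median of this list lies between that of LPIN3 and those of MTTP, LPIN2 and AGPAT3. Of 10 macrophage and Kupffer cell markers 9 were measured, 5 higher and 3 lower, with a median of 0.21 and animal medians between 0.06 and 0.37. The medians were -0.01 for stellate cells and fibroblasts, 0.02 for endothelium, 0.01 for cholangiocytes, -0.01 for adipocytes and 0.10 for skeletal muscle. Of 6 markers of intestinal enterocytes, which also express MTTP, 1 was measured (VIL1, -0.25 ± 0.07). The part of cell composition in the members' ratios was not tested.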

How the data were processed

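Spot intensities (mean signal and median local background of both colours) and processed intensities, background-subtracted and dye-normalised, were deposited by the authors as written by Agilent Feature Extraction 10.7.3.1, per the file headers. A value table deposited by the authors holds 1 log2 ratio for each probe in each sample. The submitters' processing notes name limma, and the sources used here give neither its normalisation nor its centring. The dye of each RNA, and so the direction, was read from the array's name as deposited.

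Here intensities were background-corrected (normexp, offset 50) and loess-normalised within arrays in limma 3.58.1 under R 4.3.3, control and outlier spots left out, ratios turned to HFD over STD pool and the 2 arrays of an animal averaged. Probes well above background in HFD RNA or the pool on at least 10 of 20 arrays were kept, and the brightest stood for its gene. Means were tested against 0 with lmFit and eBayes, Benjamini-Hochberg adjustment over all genes or probes and a threshold of 0.05. Differences between members used exact sign-flip permutation, and correlations over 10 animals 100000 resamples. The number of arrays limits the precision. Sequences are the probes' own in the scanner files, and overlaps count from 23 shared bases, a minimum set after sequences were seen. Members, lists and tests were chosen with earlier results of these data known. All members are named, and up to 4 called genes of each pathway list, those with the 2 highest and the 2 lowest mean ratios. For LPIN1 and GPAM the 5 genes most alike by Pearson r are named. Alternatives were other background corrections and normalisations, the processed signals, the authors' ratios, other filters, 1 dye orientation, single arrays with an animal or slide block, 1 scan session, and fewer arrays or animals.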

Additional observations from a re-analysis of the deposited data

Results flagged for a closer look

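No member gene had an animal farther from the rest than Dixon's test allows for 10 values. That test looks for 1 animal at a time, so that it could not mark LPIN1, where animals 1 and 3 stand together, apart from the other 8 by 68.5% of the range. Among 89 probes tested the same way, 3 had such an animal, where chance gives about 1 in 20. AGPAT3 probes 17815 and 83346 were lowest in animal 9, at -0.75 and -0.52, an animal whose array with HFD in Cy3 also had the lowest share of probes well above background (77.5%). The unnamed probe 44642, which overlaps GPAM on the opposite strand, was highest in animal 8, at 0.82, and probe 45501, on the same stretch of GPAM, stood at 0.81 there.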

How the results depend on the processing

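AGPAT3, LPIN2, LPIN3, DGAT2, MTTP and TM6SF2 kept direction and call under all 25 alternatives, and LPIN1 under 24, with means between -2.77 (processed signals) and -0.86 (mean of all probes). LPIN1 had no value under the strict filter, which asks for both RNAs above background on all arrays. GPAM ran from -1.01 to -0.29 and lost its call on the 14 arrays (-0.29, adjusted p = 0.0511) and in scan session 3 (-0.54, adjusted p = 0.0809). DGAT1 reversed between dyes, at -0.0891 with HFD in Cy5 and 0.0795 with HFD in Cy3, which also made the count of higher members 2. AGPAT2 passed with the mean of all probes (-0.12), where LPIN2 minus LPIN3 turned to 0.0629. The genes whose 2 arrays agreed numbered 2 with the processed signals, against 1. The added gene is LPIN1, whose r of 0.90 over 10 animals rests on its 2 sets of animals and is not read as agreement. The correlated pairs numbered 4 with HFD in Cy3 only, against 0, and GPAM with TM6SF2 was 1 of the 4. The causes were not tested. Leaving out each animal gave 7 lower and 1 higher member, and 58 to 65 lower probes. Shares over all genes and probes were counted for the main fit only. No paired analysis was possible because the STD RNA was 1 pool, so that there is only 1 group of replicates. LPIN1 was not well above background in HFD RNA on 5 of 20 arrays, so the size of its ratio there is uncertain. These were the Cy3 arrays of animals 5, 6, 7, 9 and 10.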
